A study of Mus musculus with 24 samples.

Results

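The gonadal fat pads of control mice were compared with the inguinal pads of the same mice. The pads were taken as the control libraries of the FPKM table, 12 of the 24 libraries of the study, and grouped by the letter of their names that gives the depot. They came from 3 mice, M6, M7 and M10, each with a gonadal pad, an inguinal pad and 2 libraries per pad. The FPKM values (reads scaled by gene length and by the library's reads) were averaged within a pad, so that each depot had 3 values, 1 per mouse. The study sequenced RNA of both depots from conditional adipose FoxO1 knockout mice and from floxed FoxO1 controls, with the stated aim of finding genes and pathways under FoxO1. All the mice compared here carried the floxed FoxO1 alleles without the knockout. The sources used here do not give their age, diet or strain, or the Cre driver of the knockout mice. The animals' numbers, the depot and the genotype were read from the column names, in which e was taken as the epididymal, hence gonadal, pad of a male and s as the subcutaneous, hence inguinal, pad. Transcripts of the Y chromosome were present in all the pads, with Ddx3y, a Y-linked gene, at 19.4 to 24.5 FPKM and Xist at 0.0603 FPKM or less.

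White fat stores triglyceride in adipocytes that sit in a stroma of progenitors, vessels, nerves and immune cells. The gonadal pad lies in the abdominal cavity and is covered by mesothelium, a sheet of epithelial-like cells, while the inguinal pad lies under the skin, surrounds a lymph node and can hold beige adipocytes, which burn fat for heat when stimulated. The depots arise from different parts of the embryo and keep different sets of patterning transcription factors into adult life. In mice with excess fat, the gonadal pad is known for gathering macrophages around dying adipocytes.

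The control libraries held 14953657 to 25438811 reads assigned to genes. Libraries of the same pad correlated at r = 0.991 to 0.995 across genes on the log scale, libraries of a depot from different mice at 0.936 to 0.985, and libraries of different depots at 0.796 to 0.902. Several pads carried transcripts of neighbouring tissues. The summed level of the epididymis list was 498, 2.86 and 4901 FPKM in the gonadal pads of M6, M7 and M10, against 1.67 to 3.34 FPKM in the inguinal pads. The B cell list summed to 435 to 1206 FPKM in the gonadal pads, against 732, 43.6 and 497 FPKM in the inguinal pads of M6, M7 and M10. The T and NK cell list summed to 66.0 to 91.2 FPKM in gonadal pads and 259, 14.5 and 211 FPKM in inguinal pads, so that the inguinal M7 pad was the lowest for both lists. The skeletal muscle list summed to 35.5 to 67.0 FPKM in gonadal pads and 963, 910 and 160 FPKM in inguinal pads. Thus the gonadal M7 pad had the lowest epididymal sum of its depot, the inguinal M7 pad had few lymphocyte transcripts and the inguinal M10 pad had the lowest muscle sum of its depot.

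**Figure D1:**
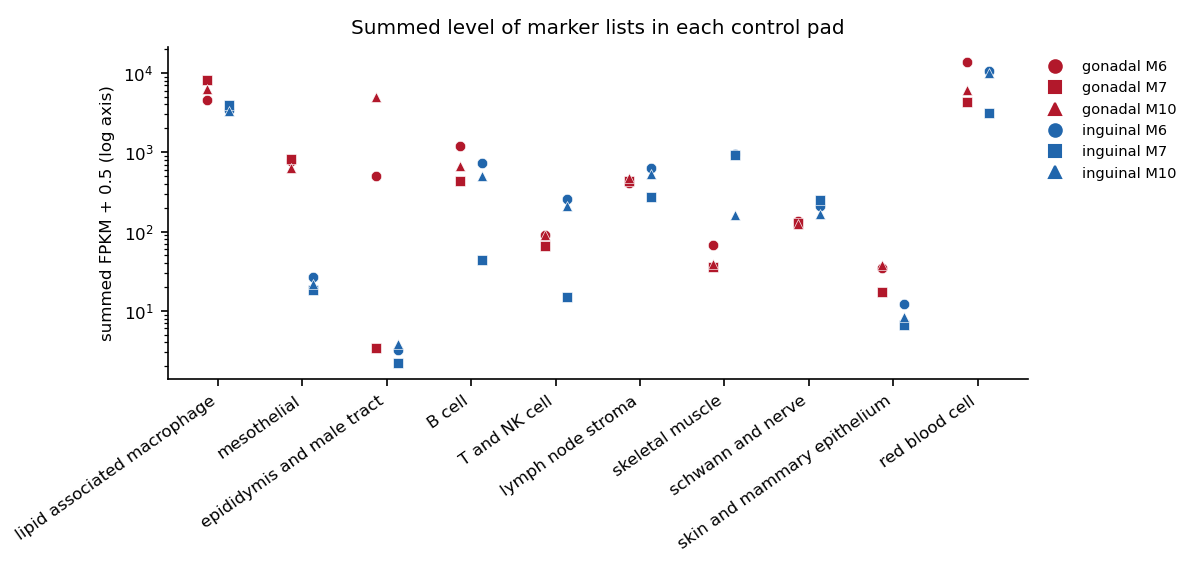
Summed FPKM (+ 0.5, log axis) of the members of 10 marker lists in each of the 6 control pads, red for gonadal and blue for inguinal, with a symbol per mouse. The mesothelial sums lie at 641 to 831 FPKM in gonadal and 17.9 to 26.0 FPKM in inguinal pads, while the epididymis, lymphocyte and muscle sums differ widely between pads of a depot.

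The depots differed at a large share of the transcriptome. Of 14505 genes with a mean of at least 0.5 FPKM over the 6 pads, 3904 (26.9%) were higher and 2106 (14.5%) lower in gonadal than in inguinal fat (limma on log2(FPKM + 0.5), two-sided, Benjamini-Hochberg adjusted p under 0.05), 41.4% in all. Higher and lower below refer to gonadal relative to inguinal fat at this threshold. The shares of 26.9% and 14.5% are the background for the list counts below. For counts at an unadjusted p under 0.05 (limma), the background is 7400 of the 14505 genes, both directions together. On rebuilt reads, edgeR called 3470 genes higher and 3061 lower, and DESeq2 3987 and 3350, which are the background for their list counts. The split of 65% higher to 35% lower became 52.3% to 47.7%, 3152 to 2880 genes, after TMM scaling, which moved the median log2 difference of all genes to 0.03, against 0.18 as deposited. Differences of at least 4-fold were counted at 721 higher and 107 lower genes, and of at least 32-fold at 46 higher and 6 lower genes. The number of calls depended on the pads of M10 more than on those of the other mice. Without the inguinal M10 pad 2575 genes were higher and 1367 lower, and without both M10 pads, which leaves 2 mice, 1089 and 445. The counts of 1089 and 445 are the background for list counts given without both M10 pads. Without both M6 pads, which also leaves 2 mice, 3469 were higher and 1788 lower, and without both M7 pads 2701 and 1504. Fits without 1 pad gave 2575 to 4347 higher and 1367 to 1968 lower genes, the background for list counts without 1 pad. Pads of the 2 depots did not overlap, with gonadal higher, at 38.7% of all genes tested and, with gonadal lower, at 20.2%, so a lack of overlap at a gene is common in these data.

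The 12 genes with the largest excess in gonadal fat, outside the lists of neighbouring tissues and called also with the animal as a block and without each pad, were led by Saa3, Arg1 and Spp1. Saa3, an acute-phase serum amyloid made in mouse fat by adipocytes and macrophages, had 1549, 3812 and 2481 FPKM in the gonadal pads of M6, M7 and M10, against 2.67, 2.15 and 0.895 FPKM in their inguinal pads. The depots did not overlap, the lowest gonadal pad being far above the highest inguinal pad, and the log2 difference was 10.07 (SE 0.42, limma adjusted p = 0.000145). Arg1, which encodes the arginine-degrading enzyme of alternatively activated macrophages and liver, had 538, 1378 and 900 FPKM in gonadal pads and 0.368, 0.386 and 0.289 FPKM in inguinal pads, a log2 difference of 10.01 (SE 0.32, limma adjusted p = 0.000106). Spp1, which encodes osteopontin, had 477, 1608 and 914 FPKM in gonadal pads, against 1.44, 1.89 and 0.824 FPKM in inguinal pads (log2 difference 8.92, SE 0.46, limma adjusted p = 0.000236). In each of these genes the M7 pad was the highest and the M6 pad the lowest of the gonadal pads. The same order held for Mmp12, the macrophage elastase, with 115, 387 and 351 FPKM in gonadal pads and 2.14, 0.571 and 1.17 FPKM in inguinal pads. It also held for Gpnmb, a glycoprotein of lipid-laden macrophages, with 157, 354 and 287 FPKM in gonadal pads and 1.69, 1.27 and 1.70 FPKM in inguinal pads. Clec4d and Clec4e, which encode C-type lectin receptors of myeloid cells, averaged 134 ± 68.8 and 64.4 ± 37.1 FPKM in gonadal pads, against 0.373 ± 0.293 and 0.161 ± 0.0831 FPKM in inguinal pads (SD, n = 3 each). The remaining genes among the 12 with the largest excess were Slpi, a secreted protease inhibitor, the mesothelial genes Upk3b and Nkain4, Vsig8, and Cxcl5, a chemokine that draws neutrophils.

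**Figure D2:**
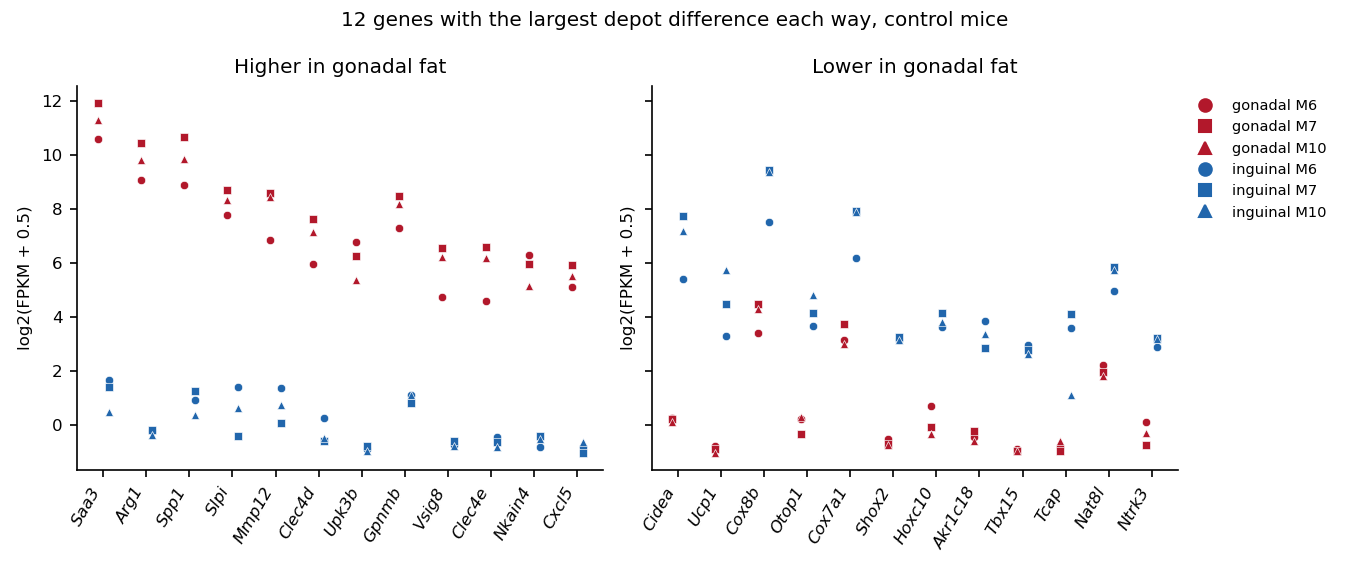
log2(FPKM + 0.5) in each of the 6 control pads of the 12 genes with the largest difference each way (red gonadal, blue inguinal, a symbol per mouse), outside the lists of neighbouring tissues and called also with the animal as a block and without each pad. The gonadal M7 pad is the highest for Saa3, Arg1, Spp1 and Gpnmb, and the depots do not overlap at any of the 24 genes.

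Saa3 lies on chromosome 7 at 46711998 to 46715676 (mm10, minus strand), Arg1 on chromosome 10 at 24915208 to 24927470 (minus strand) and Ucp1 on chromosome 8 at 83290348 to 83298456 (plus strand). The RefSeq promoter table of build GRCm38.p6 held windows, 250 bases before to 50 after the start of the gene, for 9 of these 12 higher genes and for 6 of the 12 with the largest deficit. Each was searched on both strands for the C/EBP motif TTGCNNAA, the AP-1 motif TGANTCA and the TATA motif TATAAA. The C/EBP motif was in 4 of the 9 windows of higher genes and in 0 of the 6 of lower genes, and in 10.8% of the 32851 windows used. The AP-1 motif was in 1 and 0, against 7.81% of the windows used, and the TATA motif in 2 and 2, against 13.6%. With so few windows these are descriptions of the letters only. The windows of 3 genes with such a motif and of Ucp1, which held none, are printed to show where the letters fall, with motifs in capitals. They lie at chr7:46715627-46715926 (minus strand), chr6:123289822-123290121 (minus), chr6:49036268-49036567 (plus) and chr8:83290098-83290397 (plus).
Saa3: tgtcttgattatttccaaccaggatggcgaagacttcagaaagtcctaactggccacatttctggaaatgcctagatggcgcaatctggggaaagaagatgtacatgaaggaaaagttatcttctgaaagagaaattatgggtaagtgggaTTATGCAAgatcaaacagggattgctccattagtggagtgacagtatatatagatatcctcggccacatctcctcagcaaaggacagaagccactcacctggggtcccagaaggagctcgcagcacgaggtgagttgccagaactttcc
Clec4e: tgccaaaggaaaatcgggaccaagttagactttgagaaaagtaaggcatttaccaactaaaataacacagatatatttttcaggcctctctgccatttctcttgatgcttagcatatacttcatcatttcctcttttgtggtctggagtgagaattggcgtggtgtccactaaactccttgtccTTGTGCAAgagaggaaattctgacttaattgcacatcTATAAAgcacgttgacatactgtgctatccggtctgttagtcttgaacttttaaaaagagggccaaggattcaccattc
Gpnmb: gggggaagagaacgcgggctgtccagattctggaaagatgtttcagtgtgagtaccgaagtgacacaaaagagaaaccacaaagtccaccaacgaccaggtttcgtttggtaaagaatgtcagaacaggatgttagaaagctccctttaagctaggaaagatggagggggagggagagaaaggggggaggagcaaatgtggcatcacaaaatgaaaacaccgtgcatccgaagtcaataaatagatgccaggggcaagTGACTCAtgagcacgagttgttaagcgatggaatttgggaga
Ucp1: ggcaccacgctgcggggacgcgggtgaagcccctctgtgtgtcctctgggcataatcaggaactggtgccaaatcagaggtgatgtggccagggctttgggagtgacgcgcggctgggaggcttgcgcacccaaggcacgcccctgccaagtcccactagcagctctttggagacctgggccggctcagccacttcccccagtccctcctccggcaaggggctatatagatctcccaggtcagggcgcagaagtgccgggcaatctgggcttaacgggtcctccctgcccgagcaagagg
In Saa3 the C/EBP letters began 99 bases before the start. Clec4e had them 66 bases before the start and TATAAA 29 bases before it, and in Gpnmb the AP-1 letters began 8 bases after the start.

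Macrophage genes were higher as a group. Of 20 macrophage markers tested, 13 were higher and 1 lower, with a median log2 difference of 2.05 (all genes 0.18), and their summed level was 9516, 13944 and 11807 FPKM in gonadal pads, against 2610, 1324 and 1987 FPKM in inguinal pads. Cd68, a lysosomal protein of macrophages, had 206, 375 and 295 FPKM in gonadal and 27.6, 12.9 and 20.3 FPKM in inguinal pads. Emr1, the classical macrophage surface receptor, had 53.2, 54.6 and 48.8 FPKM in gonadal and 10.9, 5.15 and 7.94 FPKM in inguinal pads, and so varied less between gonadal pads than Cd68 (log2 difference 2.69, SE 0.25, limma adjusted p = 0.000862). The complement receptor subunit Itgam and the endotoxin co-receptor Cd14 were higher by 3.91 and 4.27 on the log2 scale, and Vsig4, a complement receptor of tissue-resident macrophages, by 4.73. Members tied to resident macrophages of connective tissue, Mrc1, Folr2, Cd163, Timd4 and Cd209f, did not pass the test, at log2 differences of 0.87, 0.97, -0.34, 0.11 and 0.02. With the animal as a block Mrc1 and Folr2 passed, at limma adjusted p of 0.0137 and 0.0186. The 1 lower member was Retnla, a secreted protein of alternatively activated macrophages, with 331, 38.5 and 73.1 FPKM in gonadal and 976, 558 and 755 FPKM in inguinal pads, and it passed in 2 of the 6 fits without a pad. In bulk tissue, more cells of a type and more RNA per cell cannot be told apart.

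The list of lipid-associated macrophages, the state described around dying adipocytes, had 10 of 12 members higher and 1 lower, with a median log2 difference of 4.15. Trem2, the lipid-sensing receptor that marks the state, had 48.3, 68.9 and 50.3 FPKM in gonadal and 0.608, 0.259 and 0.253 FPKM in inguinal pads (log2 difference 6.02, SE 0.21, limma adjusted p = 0.000106). Atp6v0d2, a subunit of the lysosomal proton pump, had 26.1, 52.7 and 47.1 FPKM in gonadal pads, and at most 0.47 FPKM in inguinal pads. The 2 members that were not higher are shared with adipocytes or other cells. Lpl, lipoprotein lipase, was lower by 1.15 on the log2 scale, and Fabp5, a fatty acid binding protein, differed by -0.12 and did not pass. The summed level of the list was 4577 to 8078 FPKM in gonadal and 3322 to 3998 FPKM in inguinal pads. Lpl and Ctsd made up most of the inguinal sum. Lpl had 954 to 1052 FPKM in gonadal and 2007 to 2490 FPKM in inguinal pads, and Ctsd 1490 to 2297 and 670 to 1145 FPKM.

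Cytokine, acute-phase and complement genes were mostly higher. All 23 tested members of the acute-phase and inflammatory list were called, 19 higher and 4 lower, 11 and 2 without both M10 pads. Il33, an alarmin of stromal cells, averaged 39.2 ± 5.85 FPKM in gonadal and 3.48 ± 0.817 FPKM in inguinal pads, and Cxcl1, a neutrophil chemokine, 19.3 ± 7.85 and 0.501 ± 0.191 FPKM (SD, n = 3 each). Lcn2, an iron-carrier-binding protein of the acute phase, was at 17.1, 30.3 and 33.1 FPKM in gonadal and 1.76, 1.45 and 1.54 FPKM in inguinal pads. The 4 lower members were the acid glycoproteins Orm1 and Orm2, the serpin Serpina3c and Nos2, the inducible nitric oxide synthase. Orm1 had 96.9, 85.3 and 73.6 FPKM in gonadal and 311, 478 and 403 FPKM in inguinal pads, opposite to Saa3 although both are acute-phase genes (log2 difference -2.20, SE 0.19, limma adjusted p = 0.000752). Ptgs2, the inducible cyclooxygenase, had 104, 3.75 and 2.53 FPKM in gonadal and 0.173, 0.101 and 0.134 FPKM in inguinal pads. The gonadal M6 pad stood far above the others, and the log2 difference of 4.12 became 2.50 without it, while both passed (limma adjusted p = 0.0454 and 0.00244). With the animal as a block Ptgs2 and Nos2 did not pass, at limma adjusted p of 0.0517 and 0.0932.

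Complement had 15 of 19 members higher and 2 lower (median log2 difference 1.69). The receptors C3ar1 and C5ar1 averaged 42.5 ± 1.51 and 76.1 ± 22.3 FPKM in gonadal pads, against 2.76 ± 0.9 and 6.91 ± 1.62 FPKM in inguinal pads. The lower members were Cd59a, which protects cells from the membrane attack complex, and Cfd, the serine protease adipsin secreted by adipocytes, with 5664, 3623 and 4723 FPKM in gonadal and 9807, 11812 and 12542 FPKM in inguinal pads. Of 12 neutrophil and mast cell genes, the neutrophil genes S100a8, S100a9, Csf3r, Retnlg and Cxcr2 were higher, and the mast cell proteases Mcpt4 and Cpa3 lower (3 and 0 genes without both M10 pads). Cfd and Cpa3 did not pass with the animal as a block, at limma adjusted p of 0.067 and 0.0545. None of 17 B cell, 22 T and NK cell or 13 MHC class II genes passed limma with all the pads. Of these, 1, 1 and 0 had an unadjusted p under 0.05, edgeR called 0, 0 and 0, and DESeq2 1, 3 and 1. Without the inguinal M7 pad, which had few lymphocyte transcripts, 13 B cell and 16 T and NK cell genes were lower. Over all genes, that fit gave 3287 higher and 1968 lower.

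Mesothelial genes marked gonadal fat. Of 17 tested members 15 were higher and 0 lower, with a median log2 difference of 4.20 (4.06 after TMM scaling), and the count was 15 or 16 without any 1 pad and 14 without both M10 pads. Msln, the surface protein mesothelin, had 30.8, 37.0 and 24.3 FPKM in gonadal and 0.0699, 0.0289 and 0.013 FPKM in inguinal pads (log2 difference 5.84, SE 0.17, limma adjusted p = 0.000106). Upk3b, a uroplakin of mesothelium, had 109, 75.9 and 41.4 FPKM in gonadal and at most 0.0892 FPKM in inguinal pads. Its relative Upk1b had 40.2, 43.3 and 24.5 FPKM in gonadal and 0.0275, 0 and 0.0189 FPKM in inguinal pads. The gonadal M10 pad was the lowest of the 3 for Msln, Upk3b and Upk1b. Rspo1, a secreted enhancer of Wnt signalling, averaged 22.3 ± 5.73 FPKM in gonadal and 0.515 ± 0.0874 FPKM in inguinal pads. The members that did not pass were Dpp4, a protease also found on progenitors, at 0.76, and the tight junction gene Cldn15, at 0.44. Dpp4 passed with the animal as a block, at a limma adjusted p of 0.0292.

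Developmental transcription factors split between the depots. Of 42 factors outside the Hox clusters, 28 were expressed highly enough to be tested, of which 10 were higher, 9 lower and 9 not called (9 higher and 9 lower after TMM scaling, and 7 and 5 without both M10 pads). Wt1, a zinc-finger factor of mesothelium and of visceral fat progenitors on chromosome 2 at 105126529 to 105173616, had 30.9, 28.5 and 18.3 FPKM in gonadal and 0.056, 0.00937 and 0 FPKM in inguinal pads (log2 difference 5.63, SE 0.21, limma adjusted p = 0.000116). Tcf21, a basic helix-loop-helix factor of visceral mesenchyme, had 6.68, 3.74 and 3.8 FPKM in gonadal and 0.0612, 0 and 0 FPKM in inguinal pads. Hand2, a related factor of heart and limb, had 1.84, 2.49 and 1.5 FPKM in gonadal pads and was listed at 0 in the inguinal pads. Gata6 and Osr1, factors of the lateral mesoderm and its derivatives, were at 22.8 ± 3.69 and 20.6 ± 7.06 FPKM in gonadal pads, against 3.81 ± 0.306 and 3.28 ± 0.0871 FPKM in inguinal pads. Bnc1 and Foxc2 were also higher, by 3.07 and 1.57 on the log2 scale, and Nr2f1, Nr2f2 and Meox1 by 0.56 to 0.67. Meox1 did not pass with the animal as a block or after TMM scaling, at limma adjusted p of 0.0522 and 0.0818.

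In the other direction, Shox2, a homeobox factor of limb and heart on chromosome 3 at 66971727 to 66981771, had 0.215, 0.129 and 0.114 FPKM in gonadal and 8.32, 9.17 and 8.46 FPKM in inguinal pads (log2 difference -3.81, SE 0.13, limma adjusted p = 0.000106). Tbx15, a T-box factor of limb and skin mesenchyme on the same chromosome at 99240381 to 99354259, had 0.0486, 0.0254 and 0.0153 FPKM in gonadal and 7.39, 6.42 and 5.70 FPKM in inguinal pads. Lhx8 and En1, homeobox factors of brain and limb patterning, were at most 0.0127 and 0.226 FPKM in gonadal pads, and at 1.78 to 2.11 and 1.09 to 1.61 FPKM in inguinal pads. The depots did not overlap at any of the factors named in these 2 directions.

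The Hox genes, which pattern the body from head to tail, differed by their position in the clusters. In cluster A the anterior gene Hoxa5 was higher, with 5.55, 6.23 and 5.59 FPKM in gonadal and 1.80, 2.57 and 2.91 FPKM in inguinal pads, and the posterior genes Hoxa9 and Hoxa10 were lower, by 1.93 and 2 on the log2 scale, while the other 5 tested genes did not pass. In cluster C, Hoxc4 was higher by 0.87, Hoxc6, Hoxc8 and Hoxc9 were at log2 differences of -0.69, -0.72 and -1.62, and Hoxc5 did not pass. Without both M10 pads 1 of the 2 lower genes of cluster A and 2 of the 4 of cluster C passed. Hoxc10, the most posterior gene tested in the cluster, had 1.16, 0.45 and 0.298 FPKM in gonadal and 11.9, 17.2 and 13.7 FPKM in inguinal pads (log2 difference -3.76, SE 0.30, limma adjusted p = 0.000606). None of the 7 genes of cluster B and 3 of cluster D passed limma, 0 and 0 had an unadjusted p under 0.05, edgeR called 0 and 0, and DESeq2 3 and 0. In cluster B the gonadal pads disagreed, as for Hoxb7 with 15.0, 4.45 and 11.7 FPKM in M6, M7 and M10, against 4.51, 4.39 and 4.64 FPKM in inguinal pads. The low gonadal pad of cluster B, M7, was also the one with the lowest epididymal sum, and without it 4 of the 7 cluster B genes and 2 of the 3 cluster D genes were higher. Over all genes, 2838 were higher without that pad. The part of epididymal tissue in the Hoxb levels was not tested.

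**Figure D3:**
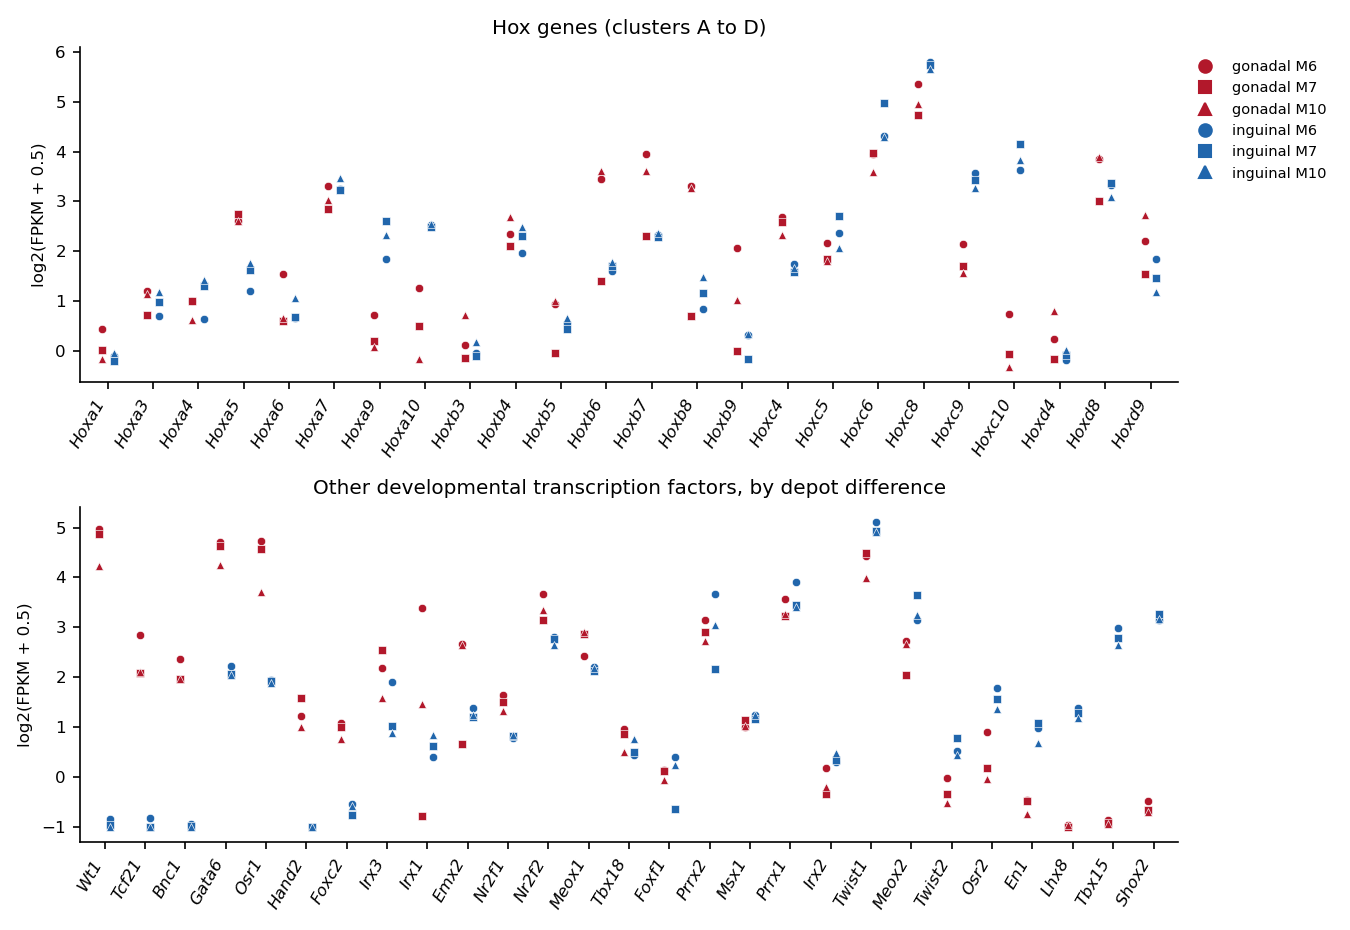
log2(FPKM + 0.5) in each of the 6 control pads of the tested Hox genes, ordered by cluster and position (top), and of other developmental factors, ordered by depot difference (bottom), with red for gonadal, blue for inguinal and a symbol per mouse. Hoxa9, Hoxa10, Hoxc9 and Hoxc10 sit lower in gonadal pads, Hoxb6 to Hoxb9 are high in the gonadal M6 and M10 pads but not in M7, and Wt1 and Shox2 lie at the opposite ends of the lower panel.

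Adipocyte genes took a smaller share of the RNA in gonadal fat. Of 26 tested identity genes, 24 were lower and 0 higher, with a median log2 difference of -1.52 (-1.69 after TMM scaling), 13 lower without both M10 pads. The list took 2.43, 2.14 and 2.21% of the reads in gonadal pads, against 4.99, 6.48 and 5.99% in inguinal pads. Plin1, the coat protein of the lipid droplet, had 411, 321 and 354 FPKM in gonadal and 926, 1043 and 1042 FPKM in inguinal pads (log2 difference -1.48, SE 0.15, limma adjusted p = 0.0012). The hormone gene Adipoq averaged 735 ± 182 FPKM in gonadal and 2134 ± 88.5 FPKM in inguinal pads, and Pparg, the master factor of fat cell differentiation, 48.7 ± 10.3 and 127 ± 19.7 FPKM. Farther from the list median stood Pck1, the glyceroneogenic enzyme, at -3.23, and Cidea, at -6.56. The 2 members not called were Lep and the fatty acid transporter Cd36, the second at -0.08. Lep, which encodes leptin, had 228, 106 and 122 FPKM in gonadal and 472, 338 and 204 FPKM in inguinal pads, and the depots overlapped (log2 difference -1.15, SE 0.40, limma adjusted p = 0.0604). With the animal as a block Lep passed, at a limma adjusted p of 0.0243.

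Genes of the fatty acid synthesis list were mostly lower. Of 20 tested, 16 were lower and 2 higher, with a median log2 difference of -1.86, and without both M10 pads 10 were lower and 0 higher. The list also holds genes that do not themselves make fatty acids, such as Mlxipl, Pnpla3 and Dak. Fasn, fatty acid synthase, had 170, 127 and 118 FPKM in gonadal and 616, 1182 and 938 FPKM in inguinal pads (log2 difference -2.69, SE 0.27, limma adjusted p = 0.00117). Acaca, which makes its substrate malonyl-CoA, had 28.1, 21.1 and 21.7 FPKM in gonadal and 88.8, 181 and 139 FPKM in inguinal pads. For both, the inguinal M7 pad was the highest and the inguinal M6 pad the lowest of its depot. Mlxipl, the glucose-sensing factor ChREBP, averaged 10.5 ± 0.616 FPKM in gonadal and 32.8 ± 2.86 FPKM in inguinal pads. Acss2, which activates acetate, and the lipase-family gene Pnpla3 were lower by 2.34 and 2.32 on the log2 scale. The higher members were the desaturase Fads2, with 70.7, 15.3 and 31.2 FPKM in gonadal and 6.19, 5.40 and 4.31 FPKM in inguinal pads, and Dak, at a log2 difference of 0.63.

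Triglyceride assembly had 13 of 18 genes lower and 2 higher, and lipolysis and droplet proteins 18 of 29 lower and 2 higher, each with 8 lower and 0 higher without both M10 pads. Gpd1, which makes glycerol phosphate, had 51.4, 62.1 and 44.4 FPKM in gonadal and 253, 510 and 464 FPKM in inguinal pads, and Dgat2, which adds the last fatty acid, averaged 315 ± 50.5 FPKM in gonadal and 925 ± 149 FPKM in inguinal pads. Lipe, the hormone-sensitive lipase, and Pde3b, the phosphodiesterase through which insulin restrains it, were lower by 1.48 and 1.37 on the log2 scale. The droplet genes that were higher were Plin2, the coat protein of most non-fat cells, by 0.81, and Hilpda, an inhibitor of triglyceride lipase, by 2.36. Plin2 did not pass after TMM scaling (limma adjusted p = 0.126), and it passed in 1 of the 6 fits without a pad. Lpin2, a phosphatidate phosphatase, and the glycerol kinase Gyk were the higher genes of triglyceride synthesis.

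Genes of mitochondrial respiration and oxidation were mostly lower. All 44 nuclear respiratory chain genes, all 21 citrate cycle genes, 18 of 19 genes of branched-chain amino acid breakdown and all 13 mitochondrially encoded subunits were lower. Their median log2 differences were -1.13, -1.42, -1.37 and -1.82, and the nuclear respiratory genes spanned a narrow range, as Ndufb10, a subunit of complex I, with 138, 119 and 121 FPKM in gonadal and 228, 255 and 257 FPKM in inguinal pads. Idh3a, of the citrate cycle, had 37.7, 35.2 and 34.9 FPKM in gonadal and 129, 187 and 185 FPKM in inguinal pads (log2 difference -2.18, SE 0.16, limma adjusted p = 0.000547). Mitochondrially encoded genes took 2.68, 1.24 and 3.01% of reads in gonadal pads, against 5.71, 10.2 and 8.52% in inguinal pads, and they have copies in the nuclear genome that may take some reads. With the animal as a block 9 of the 13 mitochondrially encoded genes passed, and mt-Nd1, mt-Nd5, mt-Co1 and mt-Atp8 did not, at limma adjusted p of 0.0532 to 0.0763. Without both M10 pads 4 nuclear respiratory, 8 citrate cycle and 3 mitochondrially encoded genes were lower, against 44, 21 and 10 without both M6 pads and 40, 21 and 8 without both M7 pads, and without the inguinal M10 pad alone 5 of the mitochondrially encoded. Of 24 mitochondrial ribosomal genes 17 were lower (11 without the inguinal M10 pad and 0 without both M10 pads), and of 30 cytosolic ribosomal genes none passed limma, at a median of 0.49. Of the cytosolic genes 1 had an unadjusted p under 0.05, edgeR and DESeq2 called 0 and 0, and 15 were higher without the inguinal M6 pad. Over all genes, 4347 were higher without that pad, the most of any fit without 1 pad.

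**Figure D4:**
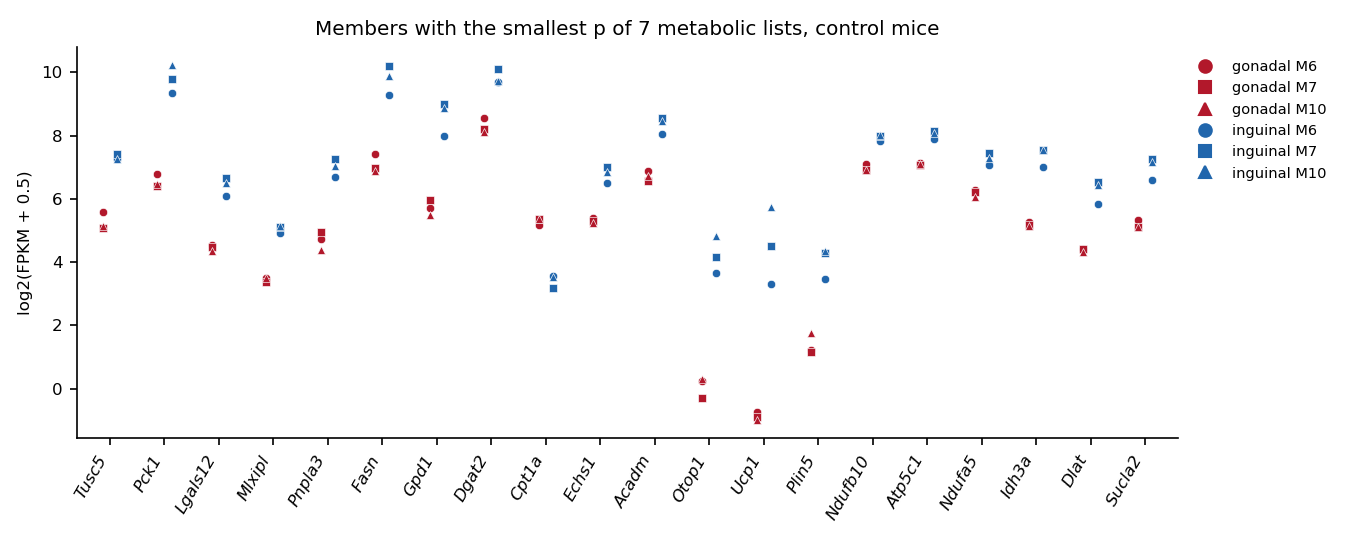
log2(FPKM + 0.5) in each of the 6 control pads of the 3 genes with the smallest p in each of 7 metabolic lists, a gene shared by lists being drawn once (red gonadal, blue inguinal, a symbol per mouse). Cpt1a alone is higher in gonadal pads, Ucp1 and Otop1 are the farthest apart, and the inguinal M6 pad is the lowest of its depot for most of the others.

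Fatty acid oxidation had 19 of 21 genes lower and 1 higher, 8 lower without both M10 pads. The higher one was Cpt1a, the liver-type carnitine transferase that admits fatty acids to mitochondria, with 35.8, 40.6 and 41.0 FPKM in gonadal and 11.4, 8.51 and 11.2 FPKM in inguinal pads (log2 difference 1.88, SE 0.14, limma adjusted p = 0.000514). It thus stood against downstream enzymes such as Acadm, a dehydrogenase of medium-chain fatty acids, with 118, 93.2 and 105 FPKM in gonadal and 267, 371 and 355 FPKM in inguinal pads. Of 19 thermogenic genes 14 were lower and 2 higher (7 and 0 without both M10 pads). Ucp1, the uncoupling protein of brown and beige fat, had 0.096, 0.0417 and 0 FPKM in gonadal and 9.51, 22.1 and 53.4 FPKM in inguinal pads (log2 difference -5.40, SE 0.57, limma adjusted p = 0.0013). Cidea, a droplet-fusion protein of thermogenic fat, had 0.725, 0.695 and 0.59 FPKM in gonadal and 42.4, 214 and 146 FPKM in inguinal pads, and Cox8b, a respiratory subunit of brown fat and muscle, 10.1, 21.9 and 19 FPKM in gonadal and 183, 686 and 660 FPKM in inguinal pads. The inguinal pads differed several-fold among themselves in all of these. From low to high the order was M6, M7, M10 for Ucp1 but M6, M10, M7 for Cidea and Cox8b. Cox8b is also a muscle subunit, and the part of muscle in its level was not tested. Tnnt3, a fast muscle troponin, was at most 0.566 FPKM in gonadal pads and at 118, 113 and 15.8 FPKM in the inguinal pads of M6, M7 and M10. Tcap, a sarcomere protein among the 12 genes with the largest deficit, had 11.5, 16.9 and 1.68 FPKM in those inguinal pads, where M10 was again the lowest. Of 18 muscle genes 13 were lower and 1 higher, 16 lower without the inguinal M10 pad and 8 without both M6 or both M7 pads.

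Some genes of the creatine cycle, described as an alternative route of heat production in beige fat, were higher. Gatm, which makes the precursor of creatine, had 102, 84.8 and 76.0 FPKM in gonadal and 11.1, 7.46 and 7.94 FPKM in inguinal pads (log2 difference 3.25, SE 0.18, limma adjusted p = 0.000304). The creatine transporter Slc6a8 and the kinase Ckb were higher by 2.27 and 1.42 on the log2 scale. The other creatine genes tested, Gamt and Alpl, did not pass, at log2 differences of 0.37 and 0.16. The mitochondrial creatine kinases Ckmt1 and Ckmt2, too low to be tested, went opposite ways. Ckmt1 had 1.20, 0.952 and 0.690 FPKM in gonadal and 0.0623, 0.0179 and 0.0582 FPKM in inguinal pads. Ckmt2 had at most 0.0169 FPKM in gonadal and 0.211 to 1.21 FPKM in inguinal pads. Of the 9 tested genes of the creatine and calcium list 4 were higher and 3 lower. The calcium pump Atp2a2 was higher by 0.62, and its muscle form Atp2a1 was lower, at most 0.127 FPKM in gonadal pads and at 31.4, 40.8 and 4.86 FPKM in the inguinal pads of M6, M7 and M10.

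Genes of insulin action did not move together. Of 24 tested, 9 were lower and 6 higher, 12 and 4 after TMM scaling and 4 and 1 without both M10 pads. The lower share was 37.5%, against 14.5% of all genes, and the higher share 25%, near the 26.9% of all genes. The receptor Insr averaged 7.95 ± 1.38 FPKM in gonadal and 14.2 ± 1.11 FPKM in inguinal pads, and its substrate Irs1 1.77 ± 0.315 and 6.12 ± 1.45 FPKM (SD, n = 3 each). Grb14, an adaptor that inhibits the receptor, was the farthest apart, with 2.69, 1.58 and 1.67 FPKM in gonadal and 18.8, 17.5 and 23.8 FPKM in inguinal pads. The kinase Akt2 was lower by 0.87 on the log2 scale, while its relative Akt1 was higher by 0.97 and the phosphatase Ptpn1, which switches the receptor off, by 1.83. Foxo1 itself had 13.6, 7.87 and 9.53 FPKM in gonadal and 19.7, 13.0 and 14.5 FPKM in inguinal pads of M6, M7 and M10. The depots overlapped, although each mouse had less in its gonadal pad, and the log2 difference of -0.60 (SE 0.23) did not pass (limma adjusted p = 0.0856, or 0.0168 with the animal as a block). Glucose transporters parted, the insulin-dependent Slc2a4 having 32.4, 24.1 and 24.7 FPKM in gonadal and 86.2, 117 and 105 FPKM in inguinal pads, and the ubiquitous Slc2a1 18.4, 51.7 and 44.0 FPKM in gonadal and 7.85, 4.86 and 5.55 FPKM in inguinal pads.

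Among the receptors for nerve signals, 7 of 14 adrenergic and neurotrophic genes were lower and 0 higher. Ntrk3, the neurotrophin receptor, had 0.603, 0.105 and 0.318 FPKM in gonadal and 6.93, 8.83 and 8.77 FPKM in inguinal pads. Adrb1, Adrb3 and Adra1a, the beta and alpha receptors for noradrenaline, were lower by 1.65, 1.41 and 2.59 on the log2 scale. Schwann cell genes were also mostly lower, 8 of 12 lower and 1 higher (6 and 1 with the animal as a block). Without both M6 pads 4 were lower, and without both M7 pads 5. S100b is a member of both lists and is counted in each. The summed level of the Schwann cell list was 136, 126 and 124 FPKM in gonadal and 207, 250 and 168 FPKM in inguinal pads. The part of nerve tissue in the receptor genes was not tested.

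Of 16 retinoid genes 8 were higher and 2 lower (7 and 3 after TMM scaling, and 4 and 2 without both M10 pads). Of 16 steroid hormone genes 3 were higher and 7 lower (1 and 3 without both M10 pads). The higher and lower shares were 50% and 12.5% for retinoid and 18.75% and 43.75% for steroid genes, against 26.9% and 14.5% of all genes. Aldh1a2, which makes retinoic acid, averaged 33.3 ± 6.24 FPKM in gonadal and 3.91 ± 0.88 FPKM in inguinal pads (SD, n = 3 each). Sult1e1, which inactivates oestrogen, had 18.2, 6.02 and 8.75 FPKM in gonadal and at most 0.0971 FPKM in inguinal pads, and the oestrogen receptor Esr1 averaged 3.29 ± 0.927 FPKM in gonadal and 10.2 ± 0.557 FPKM in inguinal pads. Akr1c18, which reduces progesterone, had 0.245, 0.375 and 0.177 FPKM in gonadal and 14.0, 6.77 and 9.81 FPKM in inguinal pads.

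Matrix genes were mostly higher, by family member. Of 22 collagens 15 were higher and 5 lower, and of 29 other matrix genes 18 were higher and 2 lower. Without both M10 pads the counts were 10 and 2, and 13 and 1. Col6a5, an alpha chain of collagen VI, had 32.3, 23.3 and 21.4 FPKM in gonadal and 0.17, 0.0551 and 0.108 FPKM in inguinal pads (log2 difference 5.40, SE 0.18, limma adjusted p = 0.000106). The basement membrane chains Col4a5 and Col4a6 were higher by 2.99 and 3.28 on the log2 scale, whereas Col4a1, the common chain of the same family, had 141, 123 and 142 FPKM in gonadal and 254, 228 and 230 FPKM in inguinal pads. The fibrillar Col1a1 averaged 351 ± 67.3 FPKM in gonadal and 134 ± 15.2 FPKM in inguinal pads, and fibronectin, Fn1, 700 ± 245 and 30.4 ± 4.27 FPKM. Timp1, an inhibitor of matrix proteases, had 86.5, 262 and 120 FPKM in gonadal and 1.66, 1.16 and 2.62 FPKM in inguinal pads.

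The stromal progenitors and their signals were mixed. Of 24 progenitor and fibroblast genes 9 were higher and 6 lower (6 and 3 without both M10 pads), with Pdgfra, the receptor that marks progenitors, at 30.8 ± 2.73 FPKM in gonadal and 8.28 ± 1.96 FPKM in inguinal pads, and Pi16, of early progenitors, at 7.92 ± 1.29 and 20.7 ± 1.14 FPKM. Of 24 Wnt pathway genes 11 were higher and 3 lower (9 and 0 without both M10 pads). The ligand Wnt4 had 28.2, 21.8 and 15.5 FPKM in gonadal and 0.148, 0.121 and 0.0407 FPKM in inguinal pads, and the secreted inhibitor Sfrp1 averaged 14.5 ± 1.11 and 0.606 ± 0.26 FPKM. Of 24 TGF-beta and BMP genes 12 were higher and 4 lower (5 and 2 without both M10 pads). The ligand Gdf6 had 8.10, 7.24 and 5.41 FPKM in gonadal and at most 0.139 FPKM in inguinal pads, while Acvr1c, a receptor of adipocytes for activin-type ligands, averaged 5.15 ± 0.793 FPKM in gonadal and 13.7 ± 1.8 FPKM in inguinal pads.

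Proliferation and early-response genes were mostly higher. Of 21 cell cycle genes 17 were higher and 1 lower (3 higher without both M10 pads). Top2a, the topoisomerase of dividing cells, had 5.15, 8.56 and 6.34 FPKM in gonadal and 2.13, 1.44 and 1.92 FPKM in inguinal pads, and Mki67, the antigen of cycling cells, 3.05, 4.14 and 3.67 FPKM in gonadal and 1.41, 0.757 and 1.11 FPKM in inguinal pads. The lower one was the cyclin gene Ccnd2, at -0.52. Of 20 immediate early genes 17 were higher and 0 lower (9 higher without both M10 pads), including Fos, with 12.3, 32.4 and 19 FPKM in gonadal and 1.34, 2.05 and 1.89 FPKM in inguinal pads, and Atf3, with 30.3, 76.3 and 65.5 FPKM in gonadal and 3.32, 2.51 and 2.43 FPKM in inguinal pads. For both, the gonadal M7 pad was the highest, and the depots did not overlap. Of 19 genes of the endoplasmic reticulum and integrated stress responses 10 were higher and 2 lower (8 and 4 after TMM scaling, and 3 and 2 without both M10 pads), among them the chaperone Hspa5, higher by 1.01 on the log2 scale.

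**Figure D5:**
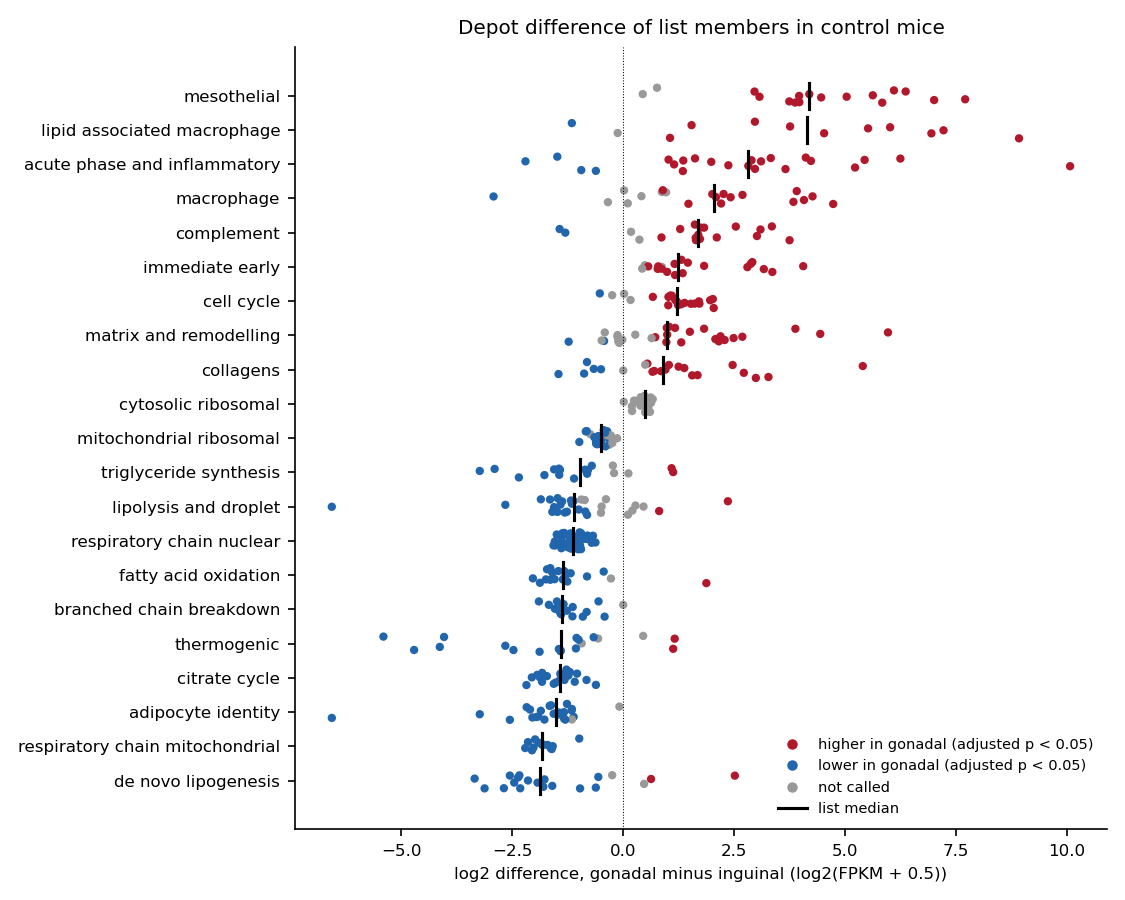
log2 difference, gonadal minus inguinal, on the log2(FPKM + 0.5) scale of every tested member of 21 gene lists in control mice. Red points are higher and blue points lower at an adjusted p under 0.05, grey points were not called and black bars are list medians. Medians run from 4.20 for mesothelial genes to -1.86 for fatty acid synthesis, and the cytosolic ribosomal genes are all grey.

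In the FoxO1 knockout mice the depots differed in much the same genes. Foxo1 was at 4.01 to 4.46 FPKM in gonadal and 2.49 to 5.69 FPKM in inguinal pads of 3 knockout mice, below every control pad. Between those pads, 5122 of 14593 genes (35.1%) were higher and 1849 (12.7%) lower in gonadal fat, 47.8% in all. Of 5947 genes called in control mice and tested in knockout mice, 5000 (84.1%) were called the same way, which is 71.7% of the knockout calls, and 5903 (99.3%) had the same sign. Wt1 had 17.5 to 29.2 FPKM in gonadal and at most 0.0421 FPKM in inguinal knockout pads, Shox2 0.0731 to 0.240 and 7.5 to 10.7 FPKM, and Ucp1 0.0288 to 0.0439 and 19.4 to 71.4 FPKM. No gene of 14577 passed a test of whether the depot difference itself differed between control and knockout mice (limma interaction), 725 had an unadjusted p under 0.05, and the smallest adjusted p was 0.619. This does not show that the depot differences were equal. H19, an imprinted RNA, was lower by 1.45 on the log2 scale in control mice and differed by 0.07 in knockout mice, but its interaction did not pass, at a limma adjusted p of 0.93.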

How the data were processed

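The labels' protocols name the Qiagen RNeasy mini kit for total RNA and NEBNext Ultra for the libraries. CASAVA, STAR and build mm10 are named in the submitters' processing notes. The sources used here name no counting tool or strand setting, and overlapping or antisense genes may share reads. The deposited table gives FPKM for 35275 genes, and the authors' comparison tables of knockout against control give read counts, a size-factor-scaled signal, log2 fold changes and p-values per the file headers. Only their read counts were used, to rebuild library totals. With these, 100% of FPKM values gave whole reads (tolerance 0.001), and 24 columns that repeat FPKM were left out. Columns carry animal numbers but not the labels' replicate numbers, so they were mapped to groups. Whether the 2 libraries of a pad are separate preparations is not given, and p-values measure the spread between 3 mice.

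Libraries were averaged within a pad. Genes with a mean of at least 0.5 FPKM were tested with limma 3.58.1 (trend, R 4.3.3) on log2(FPKM + 0.5), which understates differences of low genes, with p-values adjusted over all genes. edgeR 4.0.16 and DESeq2 1.42.0 were run on the rebuilt reads as alternatives, and the test was checked on simulated data. Same-numbered pads come from the same mouse, and their deviations from the depot means correlated at 0.037 to 0.118, against -0.068 to 0.017 for pads of different mice, so the fit with the animal as a block is the paired one.

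The genes named were the 12 with the largest difference each way, over all called genes and over those outside neighbouring-tissue lists that kept their call in the block fit and without each pad, up to 5 members of each list with the smallest p, and the Hox and developmental factors. Other members named, such as exceptions to a list's direction, Adipoq, Lep and Foxo1, were chosen after their values were seen. The comparison and the 55 lists, with 1061 genes of which 1057 were found, were chosen with earlier results of these data known. Some list members are counted but not reported by name here. List counts were described against the shares over all genes tested, with no test of a list.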

Additional observations from a re-analysis of the deposited data

How the results depend on the processing

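Of 266 called genes among the 370 named, none changed direction under any alternative. The main counts were 3904 genes higher and 2106 lower. Taking the 6 libraries of a depot as replicates gave 6031 and 3069, and DESeq2 on rebuilt reads gave 3987 and 3350. Without each pad or each animal in turn the higher count ranged from 1089 to 4347 and the lower count from 445 to 1968. The lists with at least 50% of tested members called numbered 12 higher and 15 lower, and ranged from 4 to 13 and from 5 to 17. The low ends were without both pads of M10, where 91 of the 266 named calls no longer passed with 2 mice a depot. The interaction gave 0 genes under each alternative run.

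With the animal as a replicate block, pairing the pads of a mouse, 3228 genes were higher and 1864 lower, and 4818 of the 6010 calls were kept. Of the named genes, Crisp1, Meox1, Meox2, Flt1, Kdr, Cfd, Cpa3, Dbp, Nos2 and Ptgs2 lost their call under the block, at limma adjusted p of 0.0517 to 0.101. The mitochondrially encoded mt-Nd1, mt-Nd5, mt-Co1 and mt-Atp8 also lost their call, at limma adjusted p of 0.0532 to 0.0763. Ighm, Oas2, Dpp4, Folr2, Foxo1, Lep and Mrc1 gained one, at 0.0137 to 0.0485. Values near 0 FPKM rest on few reads, and there the pseudocount sets the size of the difference.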

Other observations

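Clock genes differed between depots of control mice. Of 18 tested, 7 (38.9%) were lower and 4 (22.2%) higher in gonadal fat, against 14.5% and 26.9% of all genes. The lower ones included Dbp and Tef, outputs of the clock, and its repressor Nr1d1, at log2 differences of -1.02, -0.82 and -0.75, while the activator Arntl was higher by 0.97 (limma, without both M10 pads 2 lower and 0 higher). Of 13 tested imprinted genes, 3 (23.1%) were higher and 4 (30.8%) lower. The counts were 3 and 7 with the animal as a block, and 0 and 2 without both M10 pads. Among the called genes were the long noncoding RNAs Rian and Meg3, higher by 0.98 and 0.84, and Ndn and Nnat, lower by 1.30 and 1.56. Of 20 endothelial genes 0 were higher and 5 (25%) lower by limma (2 to 5 lower without any 1 pad). The lower ones include Fabp4, shared with the adipocyte identity list, and Gpihbp1, shared with the lipolysis and droplet list. Both are counted in each of their lists. Of the 20, 1 and 6 had an unadjusted p under 0.05, and edgeR called 0 and 8 and DESeq2 0 and 9. Of the 5 lower genes, Flt1 and Kdr did not pass with the animal as a block, where 1 gene was higher and 3 lower.

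Epididymal transcripts were the most uneven signal within a depot. Crisp1, a secretory protein of the epididymis, had 442, 1.04 and 705 FPKM in the gonadal pads of M6, M7 and M10, and Lcn5, an epididymal lipocalin, 0.221, 0 and 1493 FPKM, against at most 0.101 and 0.079 FPKM in the inguinal pads.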
